A study of Homo sapiens with 6 samples.

Results

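The genes described here encode serpins, Kazal-type inhibitors and WAP-domain proteins, families of secreted or intracellular proteins that block serine proteases. They were taken as all genes whose single annotated symbol begins with SERPIN, SPINK or WFDC, together with SLPI and PI3, and 52 of the 19775 genes on the arrays met this rule. Of these, 10 were clade A serpins, 12 clade B serpins, 9 serpins of other clades, 6 Kazal inhibitors and 15 WAP proteins. Among them SERPINA2, SERPINB9P1 and WFDC21P are annotated as transcribed pseudogenes and were counted with their families. SERPINB2, SERPINB6 and SPINK5 were not analysed here.

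IKPRAB-36 cells, Ishikawa endometrial cancer cells stably transfected with the progesterone receptor isoforms PRA and PRB, were cultured for 48 h with 1 nM medroxyprogesterone acetate (MPA, a synthetic progestin) or without it. All cells were grown in medium with charcoal stripped serum, hygromycin and neomycin. Affymetrix U133 Plus arrays of total RNA were available from 3 MPA and 3 control samples. The labels do not say that the 3 arrays of a group came from separate cultures or passages, so that p-values measure only the spread between arrays, which may be technical, and the data stand for 1 transfected line at 1 dose and 1 time. Values are RMA signals on the log2 scale, on which a difference of 1 is a 2-fold difference.

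A serpin traps its target protease by offering a reactive loop that is cut and then deforms the enzyme, so that each molecule works once. Kazal and WAP inhibitors are small proteins, folded by disulfide bonds, that fill the active site without being consumed. In the uterus and cervix such inhibitors are secreted by epithelia, where they limit neutrophil elastase, kallikreins and plasminogen activators, and some have antimicrobial activity. Some serpins inhibit no protease but bind collagen, as HSP47 does, or carry steroids, as corticosteroid-binding globulin does.

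Array medians ran from 5.16 to 5.28, and signals under them were read as close to background, since no detection calls were used here. The poly-A controls averaged 6.65 on array MPA 3, against 8.24 to 9.04 on the other 5 arrays. All 10 epithelial and endometrial markers, among them KRT8, KRT18, EPCAM, PAX8 and PGR, lay above the median on all arrays, as did 4 of 7 stromal, 1 of 5 leukocyte (CD3E) and 1 of 5 endothelial markers (PECAM1). Under it on all arrays lay 3 stromal, 3 leukocyte and 3 endothelial markers, among them LUM, PTPRC and VWF. No marker was called, but the groups did not overlap for 5 of the 10 epithelial and endometrial markers, against 16.9% of all genes. The same held for 4 of 11 housekeeping genes and for 20.9% of all genes above the median on all arrays. CDH1, EPCAM, PAX8 and PGR had log2 fold changes of -0.76, -0.54, -0.44 and 0.48, with adjusted p from 0.0586 to 0.294 (limma). Because PRA and PRB were transfected, the PGR signal may come in part from the introduced genes, so that it does not by itself mark endometrial cells. The summed linear signal of the stromal markers was 1308 to 1563 on MPA arrays and 1800.4 to 2366 on control arrays, without overlap. The collagen genes COL1A1 and COL3A1 had log2 fold changes of -0.81 and -0.53 (adjusted p = 0.168 and 0.0918 from limma), and the other 5 stromal markers lay between -0.03 and 0.10. The part of these marker shifts in the results was not tested. The summed signal of leukocyte markers was 117 to 153 on MPA arrays and 126 to 134 on control arrays.

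With MPA, 3 of the 52 inhibitor genes rose, the Kazal inhibitor SPINK13, the WAP protein SLPI and the serpin SERPINF1, and 1 fell, the serpin SERPINE2. The other 48 did not pass the test. Without array MPA 3 the counts were 3 higher and 2 lower. A gene was called at an adjusted p under 0.05 (limma, Benjamini-Hochberg over all probe sets) and a log2 fold change of at least 0.32 in either direction, the minimum of the study's methods. By this rule 7.69% of the inhibitor genes were called, against 2.90% of all genes (1.74% higher and 1.16% lower) and 2.03% of all probe sets (1.21% higher and 0.813% lower). The median log2 fold change was 0.01 over the 52 and 0.02 over all genes. The arrays of the groups did not overlap for 12 of the 52 (23.1%) and for 16.9% of all genes. An unadjusted p under 0.05 was found for 9 of the 52 and for 11.8% of all genes.

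**Figure D1:**
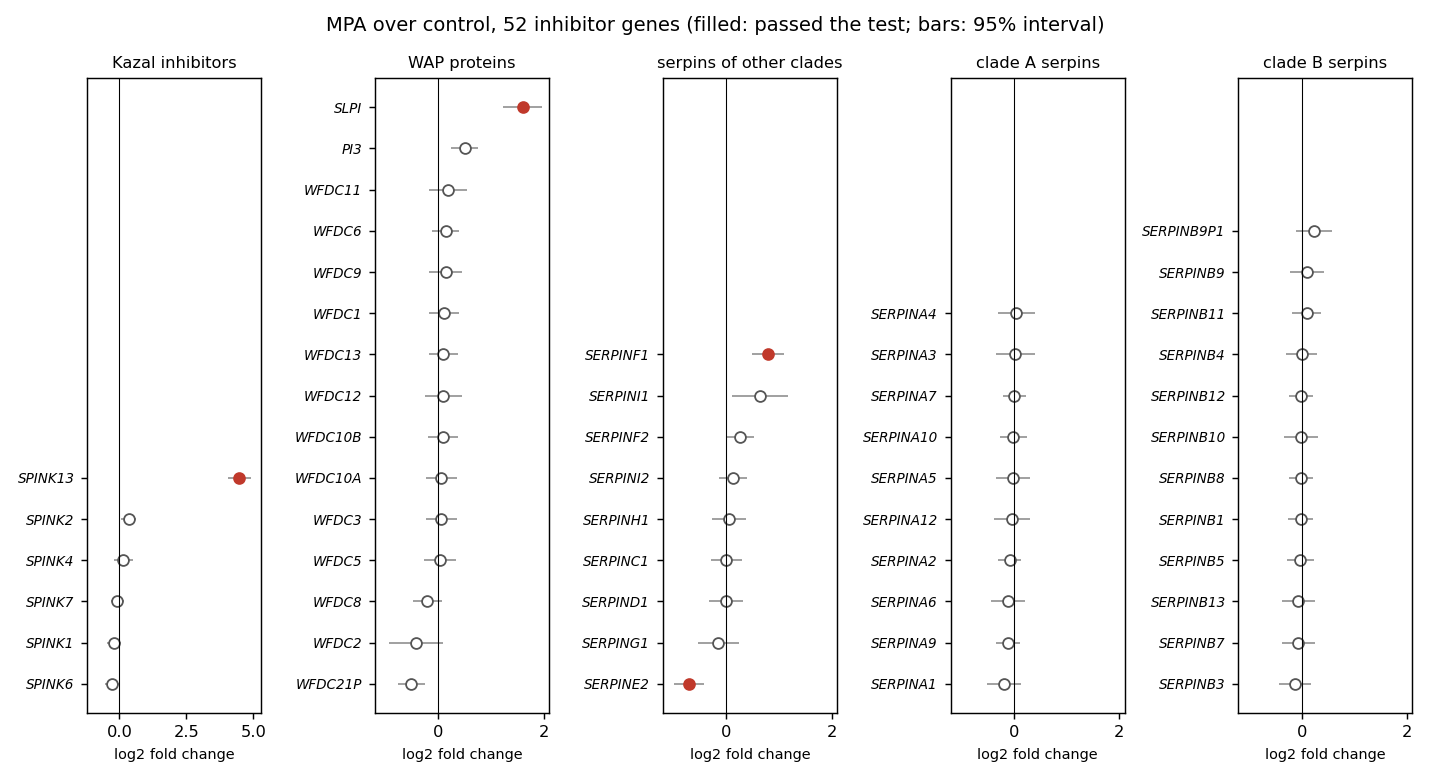
log2 fold change (x axis, MPA over control, 3 arrays each) of the 52 inhibitor genes in 5 families, with 95% intervals as bars and filled points for genes that passed the test. The Kazal panel has a wider x axis; SPINK13 stands at 4.48, SLPI at 1.60, SERPINF1 at 0.79 and SERPINE2 at -0.70.

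SPINK13, a secreted protein with 1 Kazal domain that is known in the rat from the epididymis, showed the largest change of the 52 genes. Its signal was 8.51, 9.02 and 8.52 on MPA arrays 1 to 3, against 4.02, 4.55 and 4.03 on control arrays 1 to 3. All MPA arrays thus lay far above the median signal and all control arrays under it. The difference was 4.48 on the log2 scale (standard error 0.19, 22.3-fold, adjusted p = 1.85e-05 from limma). Because the control signal was close to background, the fold is that of the RMA signals only. SPINK13 passed the test under each of the 17 alternatives run, with a log2 fold change of 4.31 to 4.65. It has 1 probe set, so averaging probe sets left its values unchanged, and dropping the fold minimum could not undo its call.

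The promoter of SPINK13 is shown because this gene carried the largest change, beside that of SPINK7, its next measured neighbour in gene order, which did not pass the test, and 1 of the 2 promoters of SERPINE2, the member that fell. Each is a RefSeq window (GRCh38.p14) of 250 bases before to 50 bases after a transcription start, on the strand of the gene. They lie at chr5:148268544-148268843 (plus strand), chr5:148312173-148312472 (plus strand) and chr2:224031429-224031728 (minus strand). Capitals mark matches to TGTTCT, the half-site of steroid receptor elements, on either strand, or to ACANNNTGT, the core that 2 facing half-sites share and that therefore overlaps the half-site in a full element.
SPINK13: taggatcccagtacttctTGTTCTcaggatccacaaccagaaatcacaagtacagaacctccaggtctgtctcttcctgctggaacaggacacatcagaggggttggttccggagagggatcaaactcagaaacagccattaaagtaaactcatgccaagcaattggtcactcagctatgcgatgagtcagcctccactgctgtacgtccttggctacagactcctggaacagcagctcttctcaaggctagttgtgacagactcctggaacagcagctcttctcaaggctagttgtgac
SPINK7: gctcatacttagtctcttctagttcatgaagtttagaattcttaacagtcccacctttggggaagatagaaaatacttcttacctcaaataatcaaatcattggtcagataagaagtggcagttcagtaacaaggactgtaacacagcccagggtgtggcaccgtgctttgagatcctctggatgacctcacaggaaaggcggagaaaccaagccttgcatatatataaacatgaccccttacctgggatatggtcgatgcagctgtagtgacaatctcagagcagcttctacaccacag
SERPINE2: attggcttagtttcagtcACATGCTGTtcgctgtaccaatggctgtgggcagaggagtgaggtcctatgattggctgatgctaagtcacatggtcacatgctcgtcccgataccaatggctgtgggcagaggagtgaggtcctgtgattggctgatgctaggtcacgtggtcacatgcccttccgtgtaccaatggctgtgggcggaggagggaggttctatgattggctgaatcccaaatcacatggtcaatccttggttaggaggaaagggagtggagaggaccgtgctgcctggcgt
In SPINK13, TGTTCT stood 232 to 227 bases before the start, and ACANNNTGT was not found. The window also holds a stretch of 41 bases and its exact copy back to back, the first of which begins 34 bases before the start. Such repeats were not particular to SPINK13. The SERPINE2 window shown holds an exact repeat of 33 bases. The window of SERPINA9, which did not pass the test, holds 1 of 37 bases back to back. Repeats were not counted over all promoter windows. The SPINK7 window held neither motif, the SERPINE2 window shown held 1 core, and the other SERPINE2 window held neither. Of all 34943 promoter windows 14.8% held TGTTCT and 5.38% held ACANNNTGT. Promoter windows were matched for 36 of the 52 genes; of their 48 windows, 6 held the half-site and 4 the core. A match describes letters only and is no binding site.

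The remaining Kazal genes did not pass the test. SPINK2, an inhibitor of acrosin in the testis, was the other Kazal gene above the array medians, with 6.55, 6.71 and 6.89 on MPA arrays and 6.45, 6.25 and 6.40 on control arrays. Its log2 fold change of 0.35 (standard error 0.12) had an adjusted p of 0.313. SPINK6, which inhibits kallikreins in skin, averaged 3.78 ± 0.11 with MPA and 4.05 ± 0.09 in control cells (SD, n = 3 arrays each; adjusted p = 0.437 from limma). SPINK1, the pancreatic trypsin inhibitor, averaged 3.12 ± 0.11 with MPA and 3.31 ± 0.10 in control cells (SD, n = 3; adjusted p = 0.658 from limma). SPINK6, SPINK1, SPINK4 and SPINK7 lay under the array medians on all 6 arrays.

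Among WAP proteins, SLPI rose and the other 14 genes did not pass the test. SLPI, the secretory leukocyte inhibitor of neutrophil elastase and cathepsin G in mucosal fluids, had signals of 10.25, 10.002 and 10.56 on MPA arrays and 8.83, 8.50 and 8.69 on control arrays. In contrast to SPINK13, it was well above the array medians in both groups, and its groups did not overlap. The difference was 1.60 (standard error 0.16, 3.03-fold, adjusted p = 0.00144 from limma). SLPI passed the test under each of the 17 alternatives, with a log2 fold change of 1.46 to 1.73. Like SPINK13 it has 1 probe set, so the same 2 alternatives could not change its call through its values.
PI3, or elafin, which inhibits neutrophil elastase and proteinase 3, is a close relative of SLPI. Its signal was 6.02, 5.98 and 6.19 on MPA arrays and 5.67, 5.49 and 5.53 on control arrays. The groups did not overlap, and the log2 fold change of 0.50 (95% interval 0.25 to 0.75) missed the threshold with an adjusted p of 0.0703. On a dimmer PI3 probe set the log2 fold change was 0.40, with an adjusted p of 0.357. SAM, the test named in the methods of the study, called PI3 higher.

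WFDC2 encodes HE4, a secreted protein measured in serum in ovarian and endometrial cancer. Its signal was 8.43, 8.34 and 8.93 on MPA arrays and 9.35, 8.55 and 9.05 on control arrays. The groups overlapped, and the log2 fold change of -0.42 (95% interval -0.94 to 0.10) had an adjusted p of 0.628. It was -0.24 without control 1, -0.64 without control 2 and -0.07 with averaged probe sets, and its dimmer probe sets differed by 0.19 and 0.01. WFDC21P, a transcribed pseudogene with no protein of the family, had 9.07, 9.05 and 9.31 on MPA arrays and 9.73, 9.60 and 9.63 on control arrays. These groups did not overlap, and its log2 fold change was -0.51 (standard error 0.11, adjusted p = 0.0729 from limma). WFDC21P was called lower by SAM, after scaling by housekeeping genes (adjusted p = 0.0389 from limma) and after subtraction of array medians (0.0329). The same held with the replicate number as a block (0.0440) and without array MPA 3 (0.0336). It was also called in the fit on averaged probe sets (adjusted p = 0.0376 from limma). WFDC21P has 1 probe set, so averaging left its values unchanged, and that fit covered 19775 genes instead of 54613 probe sets.
The other 11 WAP genes had log2 fold changes of -0.21 (WFDC8) to 0.19 (WFDC11). Of these, WFDC3 and WFDC12 lay above the array medians on all arrays and the other 9 under it on all.

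**Figure D2:**
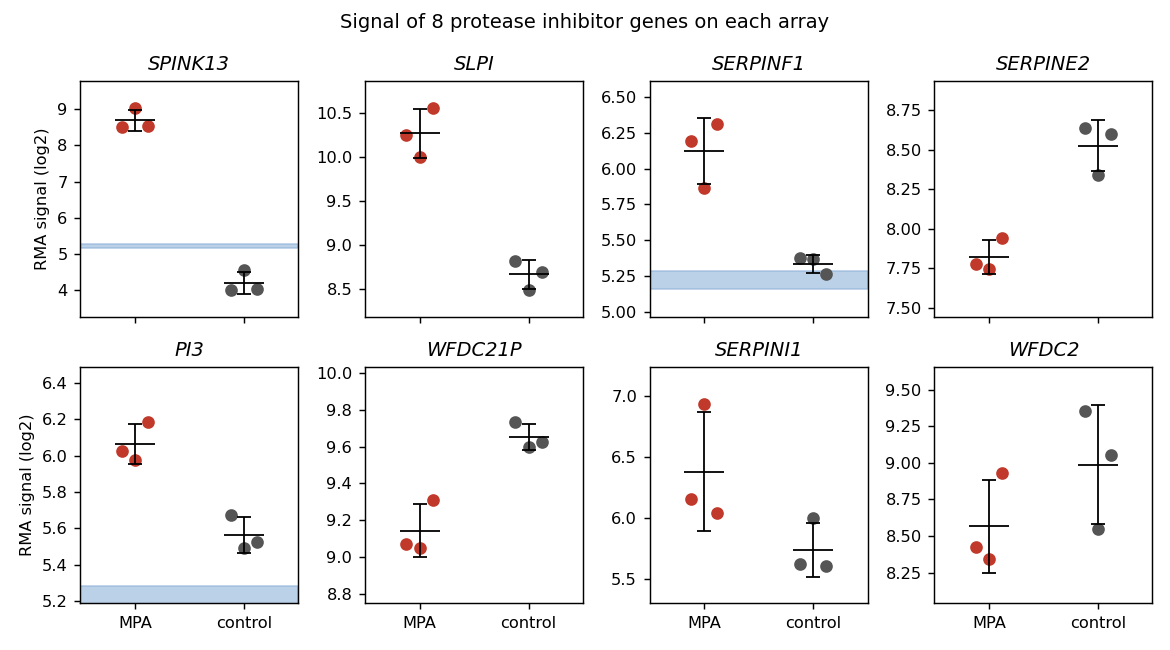
RMA signal (y axis, log2) of 8 inhibitor genes on each MPA array (red, left) and control array (grey, right), with the group mean and SD in black and the range of array medians as a blue band. SPINK13 lies above the band on the 3 MPA arrays and under it on the 3 controls; WFDC2 overlaps between the groups.

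Outside clades A and B, SERPINF1 rose and SERPINE2 fell, and the other 7 serpins did not pass the test. SERPINF1 encodes PEDF, a secreted serpin without inhibitory activity that opposes blood vessel growth. Its signal was 6.19, 5.87 and 6.31 on MPA arrays and 5.37, 5.37 and 5.26 on control arrays, and the control signals were close to the array medians. The groups did not overlap, and the difference was 0.79 (standard error 0.13, 1.72-fold, adjusted p = 0.0213 from limma). The call of SERPINF1 was lost when array control 1, control 3 or MPA 1 was left out (adjusted p of 0.0920, 0.134 and 0.124), in the treat test against the fold minimum (0.267) and with a minimum of 2-fold.
SERPINE2 encodes protease nexin-1, which inhibits thrombin, urokinase and tissue plasminogen activator at the cell surface. Its signal was 7.78, 7.74 and 7.94 on MPA arrays and 8.63, 8.34 and 8.60 on control arrays. All MPA arrays lay under all control arrays, and SERPINE2 fell by 0.70 on the log2 scale (standard error 0.12, adjusted p = 0.0227 from limma). A dimmer SERPINE2 probe set, under the array medians on every array, differed by 0.03 on the log2 scale (adjusted p = 0.978). The call of SERPINE2 was lost when control 1, control 3, MPA 1 or MPA 2 was left out (adjusted p of 0.0851 to 0.142), in the treat test (0.387), with a minimum of 2-fold and when its probe sets were averaged (-0.34, adjusted p = 0.142).

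SERPINI1, or neuroserpin, an inhibitor of tissue plasminogen activator, had 6.16, 6.94 and 6.04 on MPA arrays and 5.62, 5.996 and 5.60 on control arrays. The groups did not overlap, array 2 was the highest in each group, and the log2 fold change of 0.64 (standard error 0.23) had an adjusted p of 0.351. Without array MPA 2 it was 0.36. SERPINH1, the collagen chaperone HSP47, averaged 10.73 ± 0.24 with MPA and 10.67 ± 0.15 in control cells (SD, n = 3; 95% interval of the difference -0.28 to 0.39). SERPING1, the inhibitor of complement component C1, averaged 5.73 ± 0.23 with MPA and 5.88 ± 0.28 in control cells (SD, n = 3; adjusted p = 0.887 from limma). SERPINF2, which encodes the plasmin inhibitor antiplasmin and lies next to SERPINF1, differed by 0.26 on the log2 scale (adjusted p = 0.501), from signals under the array medians. SERPINC1 (antithrombin), SERPIND1 (heparin cofactor) and SERPINI2 also lay under them on all arrays.

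On the brightest probe set of each gene, no clade A or clade B serpin passed the test with limma or with SAM, and no unadjusted p was under 0.05. Clade A holds many of the serpins secreted by the liver into blood plasma. Its 10 genes had log2 fold changes of -0.18 (SERPINA1) to 0.05 (SERPINA4), and 7 lay under the array medians on all arrays. SERPINA1, which encodes antitrypsin, averaged 5.20 ± 0.21 with MPA and 5.38 ± 0.15 in control cells (SD, n = 3; adjusted p = 0.790 from limma). Its 3 dimmer probe sets differed by -0.05 to 0.39 on the log2 scale (for the highest, unadjusted p = 0.00883 and adjusted p = 0.207 from limma), so that the probe sets of this gene differ in sign. SERPINA3 (antichymotrypsin) stood at 4.14 with MPA and 4.11 in control cells, and SERPINA5 (protein C inhibitor) at 4.52 with MPA and 4.54 in control cells, all under the array medians. SERPINA6, the corticosteroid-binding globulin of plasma that also carries progesterone, stood at 3.90 with MPA and 4.02 in control cells.
Clade B serpins act mostly inside cells. SERPINB1, an inhibitor of neutrophil proteases, averaged 8.50 ± 0.11 with MPA and 8.52 ± 0.05 in control cells, and the 95% interval of its difference ran from -0.26 to 0.22 (SD, n = 3). SERPINB8 averaged 6.11 with MPA and 6.13 in control cells. These were the clade B genes above the array medians on all arrays; 9 of the 12, among them SERPINB5 (maspin, 3.80 with MPA and 3.83 in control cells) and SERPINB3 (squamous cell carcinoma antigen, 3.19 with MPA and 3.32 in control cells), lay under them on all. SERPINB9P1, a pseudogene, had the highest log2 fold change of the clade, 0.23 (adjusted p = 0.708). SERPINB3 and SERPINB4 are near-identical copies whose probe sets may bind both transcripts.

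In all, 33 of the 52 genes (63.5%) lay under the array medians on all 6 arrays, against 31.4% of all genes, and 16 lay above them on all 6. Of these 16, SLPI and SERPINF1 rose and SERPINE2 fell (18.8%, against 3.93% of all genes above the medians on all arrays). SPINK13 was the gene that lay above the medians in all MPA arrays and under them in all control arrays. In 41 of the 52 genes the log2 fold change was smaller than 0.25 in either direction. The SD between arrays of a group had a median of 0.16 with MPA and 0.14 in control cells over the 52 genes.

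**Figure D3:**
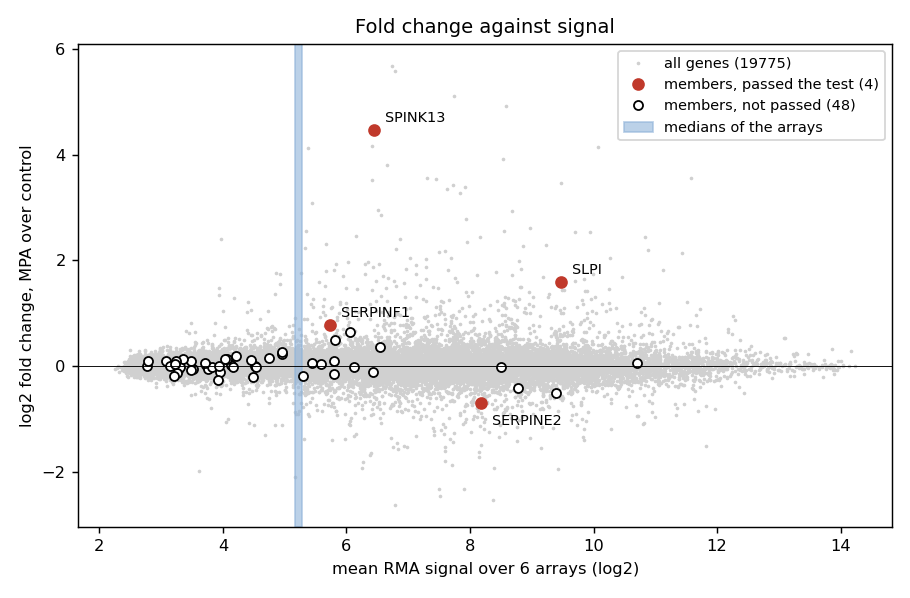
Mean RMA signal over 6 arrays (x axis, log2) against the log2 fold change of MPA over control (y axis) for all 19775 genes (grey) and the 52 inhibitor genes, filled where they passed the test; the blue band is the range of array medians. The cloud of open points left of the band holds the genes under the array medians, and the 4 filled points lie to its right.

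Most of these genes lie in runs of related genes, so that neighbours could be compared. In the run from SPINK1 to SPINK9, SPINK13 rose, while SPINK6 on one side and SPINK7 on the other had log2 fold changes of -0.27 and -0.07. In the run from WFDC5 to SLPI, SLPI stood at 1.60, PI3 at 0.50, WFDC12 at 0.09 and WFDC5 at 0.03; SEMG1 and SEMG2, which lie between PI3 and SLPI and encode semen proteins, had 0.12 and 0.19 and were not called. The run from WFDC2 to WFDC3 held 9 measured genes and no call. No call was found among 8 measured genes from SERPINA10 to SERPINA3 or 9 from SERPINB5 to SERPINB8. Of the 5 protein-coding genes on each side of a called member, 0 of 5 measured passed the test around SPINK13, 0 of 10 around SLPI, 0 of 9 around SERPINE2 and 1 of 8 around SERPINF1. The exception was RTN4RL1, a relative of the Nogo receptor, which rose by 1.20 (adjusted p = 0.00809 from limma). Over all genes 2.90% were called, so that counts this small cannot set these runs and neighbours apart from other genes.

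**Figure D4:**
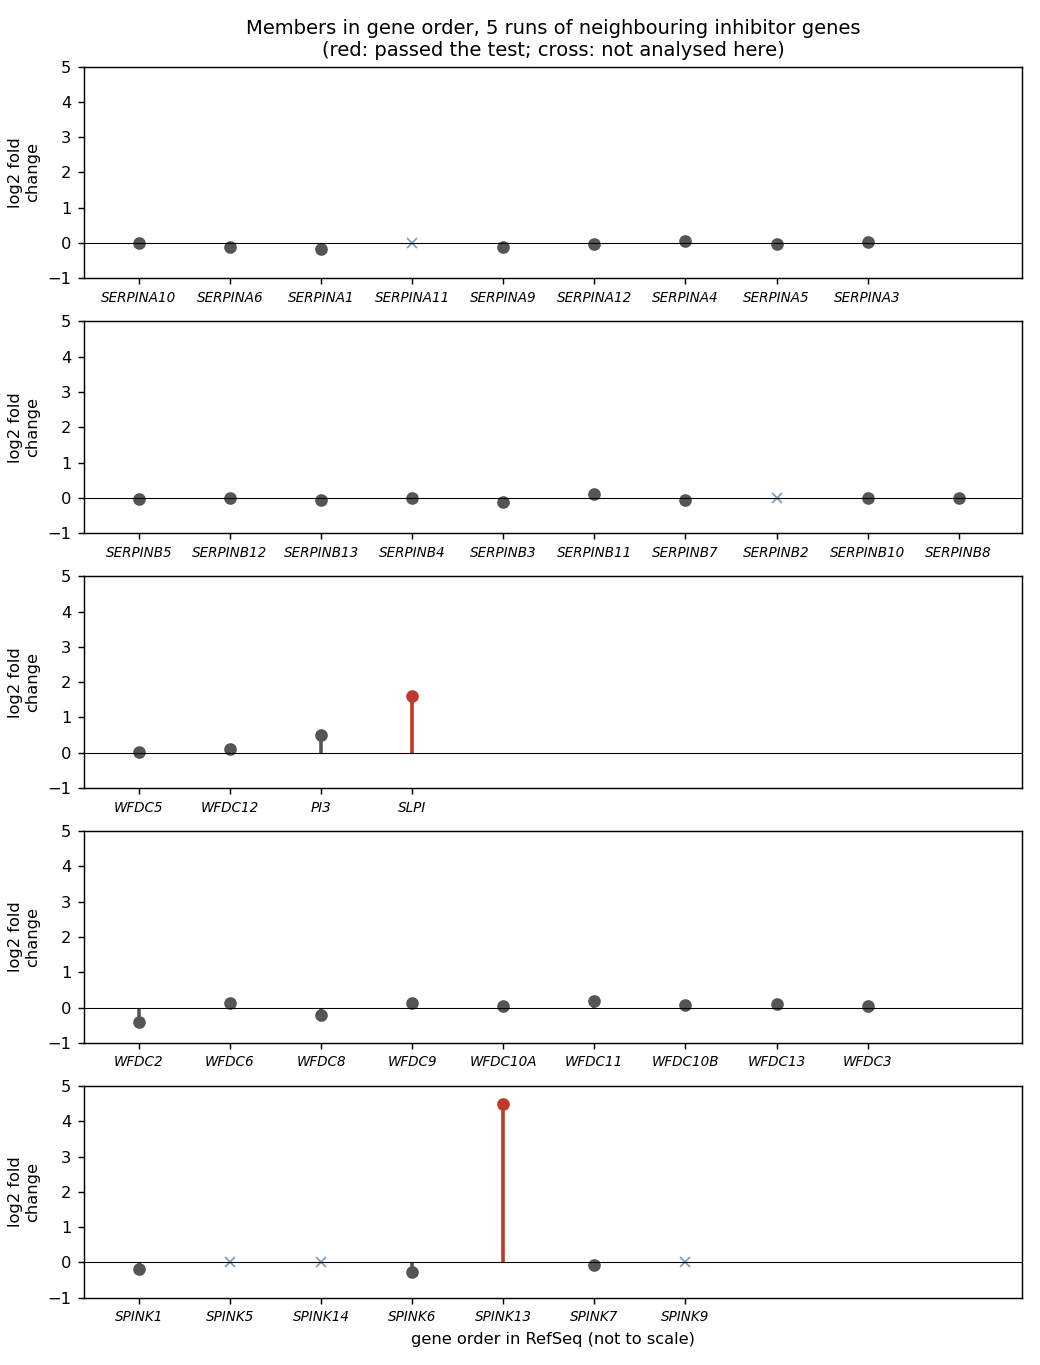
log2 fold change of MPA over control (y axis) for inhibitor genes in RefSeq gene order (x axis, not to scale) in 5 runs of neighbouring members. Red marks a gene that passed the test and a cross a gene not analysed here; SPINK13 at 4.48 and SLPI at 1.60 are single red points among neighbours between -0.42 and 0.50.

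Protease genes were compared in the same way. Of 67 measured genes for serine proteases and the urokinase receptor, 1 fell and none rose (1.49%, against 2.90% of all genes), and the median log2 fold change was 0.04. PRSS23, a secreted serine protease, fell by 0.70 on the log2 scale, with 8.60, 8.67 and 8.72 on MPA arrays and 9.35, 9.24 and 9.50 on control arrays (adjusted p = 0.0145 from limma). Its adjusted p was 0.0541 to 0.100 with control 1, control 3, MPA 1 or MPA 2 left out and 0.278 in the treat test. PLAU, or urokinase, averaged 8.24 ± 0.20 with MPA and 8.38 ± 0.13 in control cells (SD, n = 3; adjusted p = 0.853 from limma). PLAT, or tissue plasminogen activator, had a log2 fold change of -0.56 (standard error 0.25, adjusted p = 0.510 from limma). The neutrophil protease genes ELANE and PRTN3, whose products SLPI or elafin inhibit, were under the array medians on all 6 arrays. CTSG, which encodes cathepsin G, was above them on 4 of 6 arrays, with a log2 fold change of 0.12 (adjusted p = 0.941 from limma). In a separate list of 11 lysosomal cysteine cathepsin genes, none was called by limma or by SAM, and none had an unadjusted p under 0.05.

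Of 36 measured genes for other inhibitors of serine proteases, or for proteins with such inhibitor domains, 1 rose and 2 fell (8.33%, against 2.90% of all genes), and the median log2 fold change was 0.00. SPOCK1, which encodes testican-1, a proteoglycan with a Kazal-like domain, rose by 1.65, with 8.16, 7.98 and 8.21 on MPA arrays and 6.46, 6.53 and 6.42 on control arrays (adjusted p = 0.000185 from limma). TFPI2, a Kunitz inhibitor of plasmin in the extracellular matrix, fell by 0.95, with 10.26, 10.08 and 10.36 on MPA arrays and 11.19, 11.09 and 11.25 on control arrays (adjusted p = 0.00378 from limma). AMBP, whose product is split into microglobulin and the Kunitz inhibitor bikunin, fell by 1.29, with 5.35, 5.46 and 5.73 on MPA arrays and 7.05, 6.61 and 6.74 on control arrays (adjusted p = 0.00328 from limma). With averaged probe sets the log2 fold change of AMBP was -0.67 (adjusted p = 0.00932). In each of these 3 genes the arrays of the groups did not overlap, as in 16.9% of all genes. They were named for their calls on the same arrays, so that this adds nothing to the calls.

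Among the 4 calls, those of SPINK13 and SLPI held under every alternative run, and those of SERPINF1 and SERPINE2 were lost under several, as the plot of adjusted p by setting shows.

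**Figure D5:**
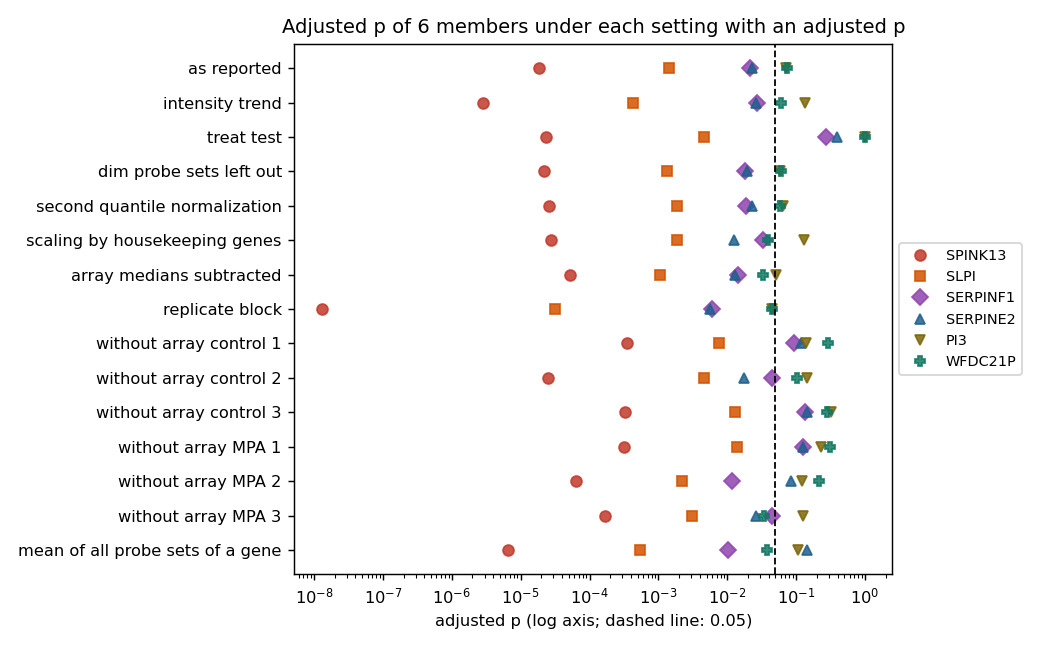
Adjusted p (x axis, log scale; dashed line at 0.05) of 6 inhibitor genes under the reported setting and each alternative that gives an adjusted p (y axis). SPINK13 and SLPI lie left of the line throughout; SERPINF1 and SERPINE2 cross it, with a highest adjusted p of 0.267 and 0.387.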

How the data were processed

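RNA of IKPRAB-36 cells was measured on 6 Affymetrix U133 Plus arrays. The deposited values are log2 RMA signals, with 1 value per probe set and array. RMA corrects background, normalizes between arrays and summarizes probes, so that none of these steps was repeated; it also compresses dim signals. No source used here gives the RMA software version. Of 54675 probe sets, 62 control probe sets were left out. Names came from the platform annotation, updated through Entrez identifiers (41037 of 41091 probe sets with 1 symbol); 1801 probe sets with several symbols and 11721 with none were tested but not named. A gene was represented by its probe set of highest mean signal. MPA and control arrays were compared by limma 3.58.1 under R 4.3.3, by a two-sided eBayes test without covariates, with p-values adjusted over 54613 probe sets. SAM was written from its description (20 relabelings, delta 0.58). Members and lists were chosen with earlier results of these data known. Named genes were the members called under any setting or with an unadjusted p under 0.05, a list of main members, the 8 brightest, the extremes of each family, and the called genes of the protease and inhibitor lists; genes named beyond this rule were chosen after their values were seen.

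Other settings were an intensity trend, SAM, the treat test, no or a 2-fold minimum, a filter on dim probe sets, 3 further normalizations, averaged probe sets, a replicate block and each array left out. Tested on simulated data for MPA against control (54613 probe sets, 3 against 3 arrays), limma recovered 0 of 67 changes of 0.5, 50 of 67 of 1 and 60 of 66 of 2 on the log2 scale, with 2 false calls among 112. These simulated data held far fewer changed probe sets than the 1107 called in the real data, and each probe set kept its estimated spread. The recovered shares may therefore differ from those in the real data. The number of arrays limits the precision: an exact permutation test of 3 against 3 cannot go below p = 0.1.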

Additional observations from a re-analysis of the deposited data

How the results depend on the processing

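The calls of SPINK13 and SLPI held under all 17 alternatives. Each gene has 1 probe set, so averaging probe sets left its values unchanged. Dropping the fold minimum could not undo a call. The number of members higher was 3, and 5 with the replicate block, which added PI3 and SERPINI1 (adjusted p = 0.0450 and 0.0201); with the other alternatives it was 2 to 4. The number of members lower was 1, and 2 by SAM, after scaling by housekeeping genes, after subtraction of array medians and with the replicate block, and 0 with a 2-fold minimum and with the treat test; it ranged from 0 to 2 with an array left out. Over all probe sets, 663 were called higher and 444 lower, against 1208 and 825 with the block, 1208 and 783 by SAM, 357 and 153 with a 2-fold minimum, 318 and 137 with the treat test, 353 to 725 and 156 to 465 with an array left out, and 356 and 215 of all genes with averaged probe sets. Same-numbered arrays correlated at -0.02, 0.52 and 0.33 in their deviations from the group means, and not every array correlated best with its own number. The labels do not say whether the numbers pair the arrays. These correlations cannot decide it, since the 3 deviations of a group depend on each other. Scaling by housekeeping genes moved the share of higher probe sets among all calls from 59.9% to 47.4%. The mean signal of these genes was 11.92 to 11.95 on MPA arrays and 11.84 to 11.89 on control arrays. This scaling therefore lowered every log2 fold change, and why these genes differed was not tested. The members' calls were then 3 higher and 2 lower.

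The count of serine protease genes called was 1, and 2 by SAM, after scaling by housekeeping genes and with the replicate block, 0 with a 2-fold minimum and with the treat test, and 0 to 1 with an array left out. The other inhibitor list had 2 to 4 calls and the list of lysosomal cysteine cathepsins 0 throughout. Of members that did not pass the test, the log2 fold change changed sign for SERPINA1 with averaged probe sets (0.0925), SERPINB5 with averaged probe sets (0.0196), and SERPINA3, SERPINA4 and SERPINH1 after scaling by housekeeping genes (-0.0549, -0.0349 and -0.0255). With an array left out it ranged from -0.14 to 0.15 for SERPINA3, -0.0655 to 0.18 for SERPINA4, -0.14 to 0.11 for SERPINA5, -0.0685 to 0.0393 for SERPINB1, -0.0877 to 0.0503 for SERPINB5 and -0.0787 to 0.14 for SERPINH1. Signals near the array medians limit what the dim members can show, since RMA compresses such differences.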

Other observations

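Some genes of the protease and inhibitor lists had an unadjusted p under 0.05 without passing the test. FSTL3, which encodes a follistatin-like binder of activin, had signals of 8.15, 8.32 and 8.58 on MPA arrays and 7.80, 7.59 and 7.67 on control arrays (log2 fold change 0.66, adjusted p = 0.0519 from limma), and it was called higher by SAM, with dim probe sets left out, after subtraction of array medians, with the replicate block and with averaged probe sets. C1S, a serine protease of complement that SERPING1 inhibits, had 4.17, 4.21 and 4.21 on MPA arrays and 4.73, 4.64 and 4.55 on control arrays (log2 fold change -0.44, adjusted p = 0.0824 from limma), all under the array medians. SAM and limma after scaling by housekeeping genes called C1S lower. CD109, a relative of alpha-macroglobulin, had 7.68, 7.66 and 7.67 on MPA arrays and 6.90, 7.48 and 7.09 on control arrays (log2 fold change 0.51, adjusted p = 0.205 from limma), and it was called higher without control 2. The serine protease genes FURIN and F10 went the other way from C1S, with log2 fold changes of 0.41 and 0.27. FURIN lay above the array medians on all arrays and F10 under them on all. In FSTL3, C1S, CD109, FURIN and F10 the arrays of the groups did not overlap, as in 16.9% of all genes. They were chosen by their unadjusted p on the same arrays, so that this adds nothing to it.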
